A study of Sus scrofa with 24 samples.

Results

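The genes described here are the kinases, D cyclins and inhibitors that set the passage of a cell through G1, measured in the hippocampus of neonatal piglets. They were named as 10 genes of 38882 listed genes: CDK4, CDK6, CCND1, CCND2, CCND3, CDKN1A, CDKN1B, CDKN1C, CDKN2C and RB1. The set was selected on measured values, because the TMM-scaled level of CDK4 was lower in the small littermate of all 12 pairs, and the other members were added as its partners and inhibitors. Of the 10 genes, 9 were found by identifier and all 9 passed the filter on low counts. CDKN1C was not analysed here.

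Libraries came from polyA RNA of 24 piglets (PIC Camborough dams, PIC 359 sires) at 14 days of age, in 4 groups of 6. Piglets were small (SGA) or appropriate (AGA) for gestational age by birth weight and received a control formula with fat as triglyceride (CON) or a hydrolyzed fat formula (HF), so that groups are named by size and then diet: AGA CON, SGA CON, AGA HF and SGA HF. Every SGA piglet was paired with a sex-matched AGA littermate that received its formula, which made 6 litters per diet as the labels number them. All piglets had nursed before they were moved to individual cages and formula, and all were of full term, so the AGA CON group is itself formula fed. Replicates 1 to 3 formed cohort 1 and replicates 4 to 6 cohort 2, with 12 libraries in each cohort and 12 of each sex.

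D-type cyclins bind CDK4 or CDK6 in early G1, and the active kinases phosphorylate the retinoblastoma protein, the product of RB1, which then releases E2F transcription factors that switch on genes for DNA replication. CDKN2C is an INK4 inhibitor that binds CDK4 and CDK6 directly, while CDKN1A, CDKN1B and CDKN1C are CIP/KIP inhibitors that bind cyclin and kinase together. The hippocampus goes on producing granule neurons in the dentate gyrus after birth, and glial progenitors still divide at this age, whereas most of its neurons have left the cycle and keep cell cycle inhibitors.

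Total counts on listed genes ranged from 6017336 to 9284355 per library, and 3 counts, the floor used here, corresponded to 0.323 to 0.499 CPM (read counts scaled to a common library total, by the TMM method). Neuron markers summed to 3145 to 7724 CPM in the 24 libraries and choroid plexus markers to 34.3 to 174 CPM. In RNA from whole tissue, fewer cells of a type and less RNA per cell cannot be told apart. The p-values rest on the spread between these piglets.

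Per kilobase of exon, the members were placed in an order of level, in which not all neighbours were apart. CCND3, the D cyclin with the broadest tissue range, was highest, with a mean of 76.6 ± 11.6 CPM per kb (SD, n = 24). CDK4 followed at 52.4 ± 5.45 CPM per kb and CDKN1B, the CIP/KIP inhibitor typical of resting cells, at 29.5 ± 3.15 CPM per kb. Each of these was above the next gene in the order in 24 of 24 libraries. They stood at the 92.1, 88.3 and 80.8 percentile of the 16326 genes tested.

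Lower in the order were CCND2 at 10.7 ± 3.01 CPM per kb, CCND1 at 5.73 ± 2.04, CDKN2C at 5.49 ± 1.06 and RB1 at 4.79 ± 0.541. CCND1 and CDKN2C did not differ beyond their spread, as CCND1 was the higher in 11 of 24 libraries, and CDKN2C was above RB1 in 16 of 24. CDK6 at 1.89 ± 0.270 CPM per kb and CDKN1A, the p53-inducible inhibitor, at 0.856 ± 0.298 CPM per kb closed the order, and here each was below its neighbour in 24 of 24 libraries.

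Within each role 1 gene held most of the level per kb. CDK4 exceeded CDK6 by 21.2 to 36.7 times (median 27.7), CCND3 made up 71.9 to 88.2% (median 82.6%) of the D cyclins, and CDKN1B made up 77.2 to 85.6% (median 82.1%) of the measured inhibitors. The order and the ratios per kb depend on the gene models of the deposited files. In CPM not divided by length, CDK4 (mean 67.5) and CDKN1B (60.5) exceeded CCND3 (37.2), and CDK6 had a mean of 20.3. The RNA quality number given by the study was not taken into account. The D cyclin models were the shortest of the set, with 595 bp of exon for CCND1, 571 bp for CCND2 and 486 bp for CCND3, against 10717 bp for CDK6, and whether they hold the whole transcript was not tested. CDK6 is listed as a long non-coding gene in the later Sscrofa11.1 table and was kept by its symbol. Whether its counts measure the mRNA of the kinase was not tested, which also limits the ratio of CDK4 to CDK6.

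On Sscrofa10.2, the build of the files, CDK4 (gene 100144492) and CDKN1B (397584) lie on unplaced scaffolds, at positions 33018 to 35824 and 60416 to 65206. CDK6 (100518921) lies on chromosome 9 from 79239881 to 79316977, CCND1 (100738589) on chromosome 2 from 2342276 to 2348167, CCND2 (397162) on chromosome 5 from 68314784 to 68331944, and CCND3 (780426) on chromosome 7 from 42489107 to 42493235. CDKN1A (100152215) is on the same chromosome as CCND3, from 37258037 to 37267157, CDKN2C (100515210) on chromosome 6 from 148743931 to 148749851, and RB1 (100151828) on chromosome 11 from 19648360 to 19770943. LPAR6, a lysophospholipid receptor gene, lies inside RB1 on the other strand. The counts were stranded and the exons of LPAR6 shared 0 bases with those of RB1, nor did the exons of any other gene overlap those of a member.

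**Figure D1:**
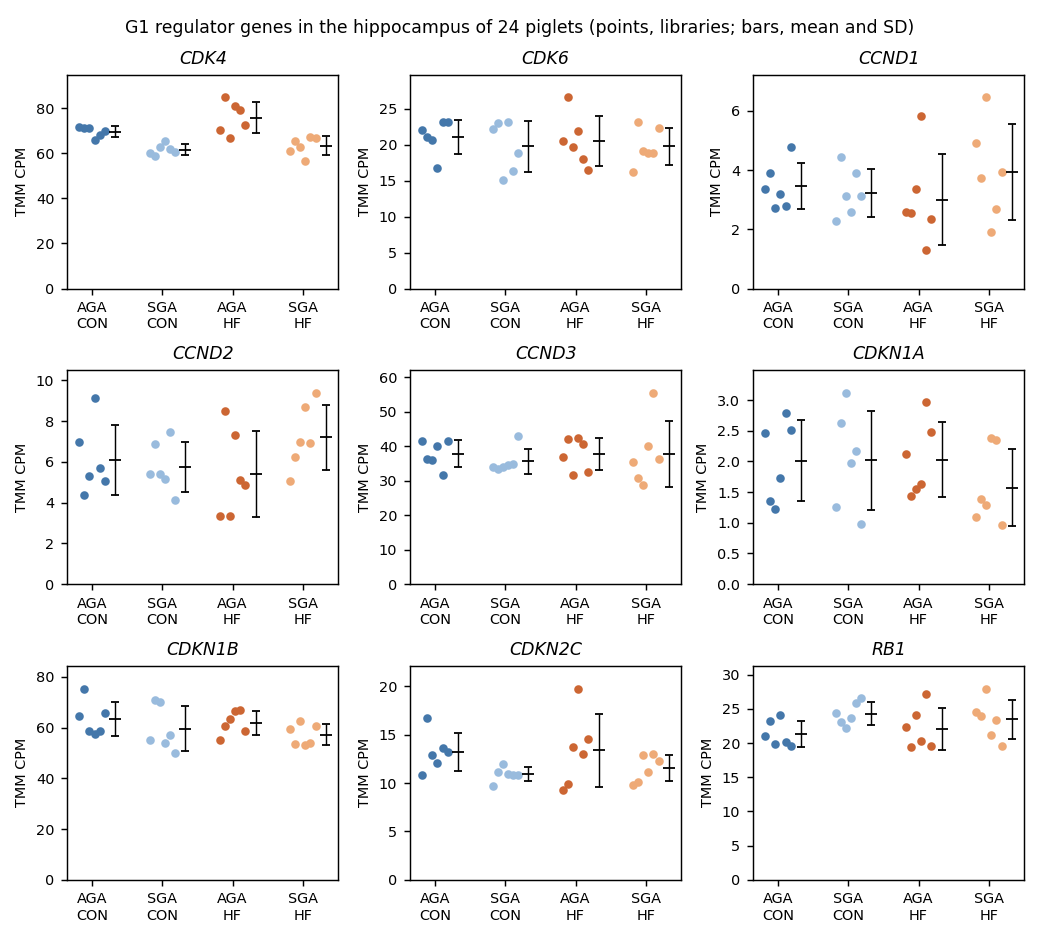
TMM CPM (vertical axes, from 0) of the 9 measured members in the 4 groups of 6 piglets; points are libraries and bars are the mean and SD. CDK4 in SGA CON (58.6 to 65.3 CPM) lies below CDK4 in AGA CON (65.7 to 71.7 CPM), whereas the groups of the other members overlap.

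CDK4 was the member by which the set was chosen, so its difference between SGA and AGA piglets is given as a description. In AGA CON piglets it had a lowest, median and highest level of 65.7, 70.4 and 71.7 CPM, and in SGA CON piglets of 58.6, 61.2 and 65.3 CPM. In AGA HF piglets these were 66.6, 75.9 and 84.7 CPM, and in SGA HF piglets 56.4, 64.1 and 67.3 CPM. The CON groups did not overlap, while on HF 2 of the 6 SGA piglets (replicates 5 and 6) were above the lowest AGA piglet. Of the 9 measured members only CDK4 had every SGA CON library below every AGA CON library, a pattern shown by 0.263% of the genes tested. No member had it on HF, where 0.153% of the genes did.

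Every SGA piglet had less CDK4 than its littermate, and the gap between littermates varied widely. The SGA level was 69.7% of the AGA level in HF replicate 4 (56.4 against 81.0 CPM) and 99.4% in CON replicate 4 (65.3 against 65.7 CPM). The pair of CON replicate 4 was a near tie, closer than the counting error of CDK4 (4.45%). Across pairs the difference averaged -0.22 ± 0.136 on the log2 scale (SD, n = 12). It averaged -0.18 in CON and -0.26 in HF litters, -0.23 in cohort 1 and -0.20 in cohort 2, and -0.20 in female and -0.23 in male litters. Because CDK4 was chosen for being lower in all 12 pairs, the same direction in each diet, cohort and sex follows from the choice. SGA lower in all 12 pairs, the pattern that chose CDK4, was found for 49 of the 16326 genes (0.300%). No other measured member had it.

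**Figure D2:**
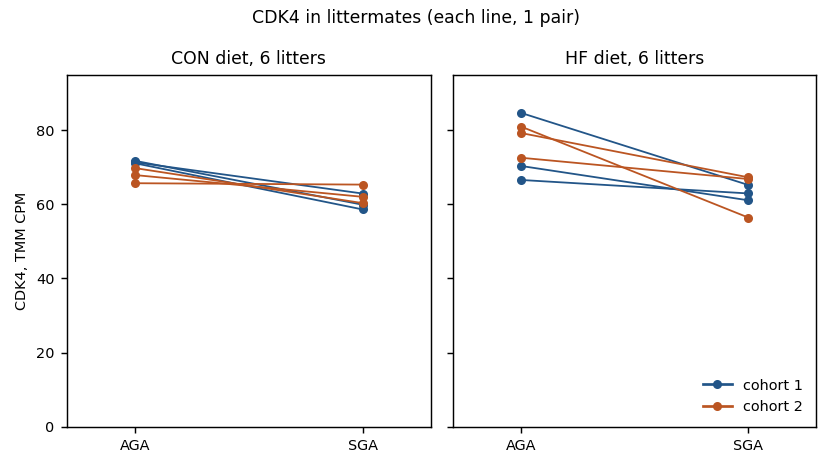
CDK4 in TMM CPM (vertical axis, from 0) in AGA and SGA littermates on the CON and HF diet; each line joins 1 pair and its colour gives the cohort. All 12 lines fall, the steepest in HF replicate 4 (81.0 to 56.4 CPM) and the flattest in CON replicate 4 (65.7 to 65.3 CPM), a near tie.

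The gene listed under the symbol of the partner kinase, CDK6, and the cyclins did not share this pattern in the littermates. CDK6 ranged from 15.1 to 26.6 CPM over all libraries with group medians of 19.0 to 21.5 CPM. It was lower in the SGA piglet of 7 pairs and higher in 5, with a mean difference of -0.07 ± 0.311 on the log2 scale. CCND3 ranged from 28.6 to 55.4 CPM with group medians of 34.2 to 38.8 CPM. It was lower in the SGA piglet of 8 pairs, at -0.05 ± 0.232, and in cohort 1 it was lower in 6 of 6 pairs (mean -0.19), whereas in cohort 2 it was higher in 4 of 6 (mean 0.08). The difference between cohorts in this gap was not tested.

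CCND2, the D cyclin of many neural progenitors, had a lowest, median and highest level of 4.37, 5.49 and 9.16 CPM in AGA CON, 4.11, 5.42 and 7.47 CPM in SGA CON piglets, 3.34, 4.98 and 8.48 CPM in AGA HF and 5.04, 6.94 and 9.38 CPM in SGA HF piglets. The 4 groups overlapped, with the highest median in SGA HF. CCND1 and CCND2 had the higher level in the SGA piglet of 8 pairs each, with mean differences of 0.15 ± 0.736 and 0.19 ± 0.563. Both spreads were several times that of CDK4. The CCND2 difference averaged 0.45 in HF litters, where 5 of 6 SGA piglets were the higher, and -0.06 in CON litters, where 3 of 6 were. CCND1 was higher in the SGA piglet of 5 of 6 HF litters by 0.51 to 0.90, and the remaining one, HF replicate 4, had a difference of -1.49 (5.82 CPM in AGA and 1.90 CPM in SGA). Its counts were only 8 to 50 per library.

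Among the inhibitors CDKN2C came closest to CDK4. Its lowest, median and highest levels were 10.9, 13.0 and 16.7 CPM in AGA CON, 9.71, 10.9 and 12.0 CPM in SGA CON piglets, 9.25, 13.4 and 19.8 CPM in AGA HF and 9.82, 11.7 and 13.0 CPM in SGA HF piglets. The AGA groups reached higher, but the groups overlapped on both diets. CDKN2C was lower in the SGA piglet of 10 pairs with a mean of -0.22 ± 0.257. One of the 10 was a near tie, with 13.0 CPM in both piglets of HF replicate 5. All 6 CON litters had less CDKN2C in the SGA piglet (mean -0.26), as did 4 of 6 HF litters (mean -0.17). The widest gap was again in HF replicate 4, at 19.8 CPM in the AGA and 11.2 CPM in the SGA piglet, a difference of -0.81.

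CDKN1B ranged from 49.8 to 75.4 CPM and CDKN1A from 0.959 to 3.12 CPM over all libraries, and in both genes all 4 groups overlapped. CDKN1B was lower in the SGA piglet of 9 pairs (-0.10 ± 0.192) and CDKN1A in 8 (-0.18 ± 0.755). CDKN1A differences ran from -1.17 to 1.19 and rested on 6 to 27 counts per library. RB1, the substrate, had a lowest, median and highest level of 19.6, 20.6 and 24.2 CPM in AGA CON, 22.2, 24.1 and 26.6 CPM in SGA CON piglets, 19.4, 21.3 and 27.2 CPM in AGA HF and 19.6, 23.7 and 28.0 CPM in SGA HF piglets. Its groups overlapped, but it went the other way from CDK4 in most litters, with the higher level in the SGA piglet of 9 pairs (0.14 ± 0.183), including 6 of 6 male and 3 of 6 female litters.

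**Figure D3:**
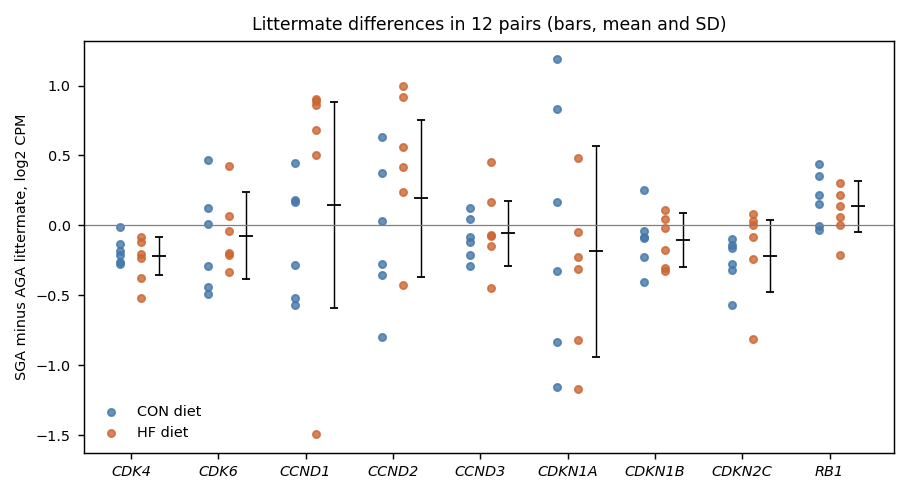
SGA minus AGA littermate difference in log2 CPM (prior count 2, vertical axis) for 9 members in 12 pairs, by diet; bars are the mean and SD over 12 pairs. CDK4 lies below 0 in all 12 pairs (mean -0.22, SD 0.136), CDKN2C in 10 and RB1 above 0 in 9.

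In the edgeR model with sex and 5 surrogate variables, the CDK4 size coefficient was -0.18 on the log2 scale (SE 0.0435), that of RB1 0.17 (SE 0.0684) and that of CDKN2C -0.07 (SE 0.0784). The CDKN2C coefficient was -0.24 without the surrogate variables and -0.23 with the litter as a block, and that of CDKN1B, -0.02 in the model, was -0.10 in both. At an FDR p under 0.4 over the 7 contrasts, edgeR called 1 member of 9, CDK4, beside 0.478% of all genes tested. The study named this threshold for its heat map and described it as larger than normal, so calls at it are lenient. The call was lost with limma voom, the tool of the study (FDR-adjusted p = 0.433), and in edgeR with no filter on low counts or with a filter of 1 CPM in at least 6 libraries (FDR-adjusted p = 0.419 and 0.424). Since size chose CDK4, nothing is read from this count.

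The spread of a member within a group was smallest for CDK4 and largest for the members with few counts. CDK4 had the smallest coefficient of variation, a mean of 5.75% over the 4 groups, where counting error alone would give 4.45%. RB1 stood at 10.5% with CDKN1B just below it, CCND3, CDK6 and CDKN2C at 14.5 to 15.5%, CCND2 at 27.7%, CCND1 at 34.8% and CDKN1A at 35.6%. The median of all genes tested was 18.3%. CDK4 was more even in CON piglets (SD 2.36 CPM in AGA and 2.41 in SGA) than in HF piglets (SD 6.97 and 4.10), a difference in spread that was not tested.

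Diet was not used in choosing the genes and was tested. CDK4 had a lowest, median and highest level of 58.6, 65.5 and 71.7 CPM in the 12 CON libraries and of 56.4, 67.1 and 84.7 CPM in the 12 HF libraries, ranges that overlap over most of their length. The main effect of HF was 0.08 on the log2 scale (SE 0.0437, 95% interval -0.01 to 0.17, edgeR FDR-adjusted p = 0.777). None of the 9 members was called for the main effect of diet, against 0.159% of all genes, and 0 of 9 had an unadjusted p under 0.05, against 7.09% of all genes. limma voom and DESeq2 also called 0 members.

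In the model with surrogate variables the diet estimate of CCND2 was 0.19 (SE 0.168, 95% interval -0.16 to 0.54) and that of RB1 -0.11 (SE 0.0691, interval -0.25 to 0.04), and the other members lay between -0.10 and 0.08. The edgeR FDR p of the 9 members ran from 0.777 to 0.994. Because littermates shared a diet, diet was also tested on 12 litter sums, where the CDK4 estimate was 0.07 (SE 0.0508, edgeR FDR-adjusted p = 0.999). On the litter sums the estimate was 0.09 (SE 0.156) for CCND2 and -0.01 (SE 0.0820) for RB1, and CDKN1A had the estimate farthest from 0, at -0.21 (SE 0.186), against -0.03 in the model with surrogate variables. CDK6, CCND1 and CDKN2C changed the sign of their diet estimate without the surrogate variables, and no direction is given for them.

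Split by size, HF minus CON gave for CDK4 0.10 (SE 0.0603) in AGA and 0.06 (SE 0.0593) in SGA piglets. In AGA piglets 0 of 9 members were called and 0 had an unadjusted p under 0.05 in edgeR, against 0.0674% and 6.09% of all genes. In SGA piglets both counts were again 0 of 9, against 0.0919% and 5.16%. In the same model CCND2 had the largest estimate among the members in SGA piglets, whose CON and HF libraries overlapped for this gene, at 0.37 (SE 0.221, 95% interval -0.09 to 0.83).

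The interaction asks whether the SGA minus AGA difference was the same on both diets. For CDK4 it was -0.04 (SE 0.0817, 95% interval -0.21 to 0.13, edgeR FDR-adjusted p = 0.962). CDKN1A had an estimate of -0.60 (SE 0.440, interval -1.52 to 0.31), which was -0.37 without the surrogate variables. The cyclins CCND1 at 0.52 (SE 0.416) and CCND2 at 0.37 (SE 0.317) had intervals that held 0. None of the 9 members was called by edgeR, against 0.0490% of all genes, 0 of 9 had an unadjusted p under 0.05, against 4.01%, and the edgeR FDR p ran from 0.847 to 0.997. The intervals of the low-count members were wide, reaching 1.38 for CCND1, 1.03 for CCND2 and -1.52 for CDKN1A.

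**Figure D4:**
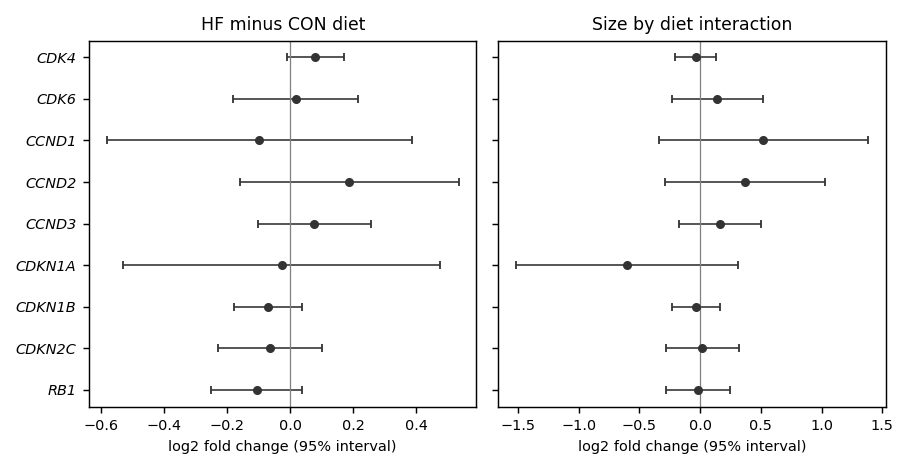
Log2 fold changes of 9 members (points) with 95% intervals (bars) for HF minus CON over both sizes and for the interaction, from the edgeR model. Every interval holds 0, the narrowest for CDK4 (-0.01 to 0.17 for diet) and the widest for the interaction of CDKN1A (-1.52 to 0.31).

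Sex and cohort were tested on the 12 litter sums. CDK4 in female libraries had a lowest, median and highest level of 58.6, 67.1 and 84.7 CPM and in male libraries of 56.4, 64.7 and 81.0 CPM, ranges that overlap almost wholly. The male minus female estimate was -0.06 (SE 0.0537). No member of 9 passed an edgeR FDR p of 0.05 by sex, against 0.104% of all genes, and 0 had an unadjusted p under 0.05, against 3.65%.

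By cohort the count was also 0 of 9 at an edgeR FDR p of 0.05, against 0.447% of all genes, and 0 of 9 at an unadjusted p of 0.05, against 11.2%. CDK4 differed by -0.01 between cohort 2 and cohort 1 (SE 0.0537). The largest estimates were those of CDKN1A, 0.29 (SE 0.197), and CCND2, 0.23 (SE 0.162). CCND3 had a mean of 35.1 ± 3.97 CPM in cohort 1 and of 39.4 ± 6.36 CPM in cohort 2 (SD, n = 12 libraries each), an estimate of 0.14 (SE 0.0960, edgeR FDR-adjusted p = 0.618).

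The genes around these members were examined as a list of 29 G1/S genes, such as E cyclins, E2F factors and their targets, and a list of 20 genes of S and M phase. Of the G1/S list 25 genes were tested, and 0 were called in either direction for size, diet or the interaction. Their median log2 fold changes were -0.01, 0.02 and -0.06, beside medians of 0.00 over all genes for each contrast. Of the S and M phase list 17 genes were tested, 0 were called, and the medians were 0.01, 0.03 and -0.03. At an unadjusted p under 0.05, edgeR gave 1 gene of the G1/S list for size, 0 for diet and 1 for the interaction, and 1, 1 and 0 genes of the S and M phase list, where 10.6%, 7.09% and 4.01% of all genes passed. For size, the gene of the G1/S list was MYCN (0.16, SE 0.0692) and that of the S and M phase list MKI67 (0.28, SE 0.0959). Both were higher in SGA piglets. S and M phase genes summed to 133 to 160 CPM in AGA CON and to 125 to 153 CPM in SGA CON piglets. On HF they summed to 135 to 167 CPM in AGA and to 137 to 154 CPM in SGA piglets.

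Marker lists of other cell types lay on both sides by size. All 6 of 6 oligodendrocyte genes had a lower estimate in SGA piglets (median log2 fold change -0.17, range -0.52 to -0.09), 0 of them called. Their summed level was 17725 to 23215 CPM in AGA CON, 12377 to 19009 CPM in SGA CON, 13626 to 24963 CPM in AGA HF and 11460 to 22508 CPM in SGA HF piglets, so that these ranges overlap on both diets. The 6 oligodendrocyte progenitor genes, some of which also mark dividing glia, had a median of 0.00. Of the 6 meninges genes 5 had a lower estimate (median -0.14) and 1 was called, PTGDS, a prostaglandin D synthase that oligodendrocytes also make, at -0.28. The meninges genes summed to 226 to 280 CPM in AGA CON, 198 to 320 CPM in SGA CON, 238 to 408 CPM in AGA HF and 214 to 308 CPM in SGA HF piglets. Within diets the meninges genes were 3 higher and 3 lower on CON and 6 of 6 lower on HF. Astrocyte and microglia lists had 4 of 6 genes lower each, with medians of -0.03 and -0.02, and the astrocyte genes were 6 of 6 lower on CON and 2 of 6 on HF. Of 7 neuron genes 5 had a higher estimate in SGA piglets (median 0.01), led by the glutamate transporter gene SLC17A7 (0.14, SE 0.0425) and the transcription factor gene NEUROD2 (0.16, SE 0.0482), each with an edgeR FDR-adjusted p of 0.506. Of 5 immature neuron genes 3 had a lower estimate in SGA piglets (median -0.01). The endothelium and pericyte list had 4 of 5 genes higher (median 0.02), and the choroid plexus list 2 of 3 genes tested (median 0.17). No gene of the astrocyte, microglia, neuron, immature neuron, endothelium and pericyte or choroid plexus lists was called. The part of any of these cell types in the CDK4 difference was not tested.

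Across the 24 libraries the genes whose log2 CPM was most like CDK4 were RPL17 (Pearson r = 0.83), DYNLT1 (0.82), RPL21 (0.82), HMGN2 (0.82) and RPS19 (0.81). RPL17, RPL21 and RPS19 encode ribosomal proteins, whose many processed copies make their counts uncertain, DYNLT1 is a dynein light chain and HMGN2 a nucleosome-binding protein. Among the most opposite were ORC5 (-0.86), a subunit of the origin recognition complex, ASAP2 (-0.80), SLC24A3 (-0.79) and XYLT1 (-0.77). Over the 24 libraries the central 90% of 12361 genes had r between -0.45 and 0.48. For the 12 littermate differences the most alike were TCEA1 (0.91), NCAPG (0.90), a condensin subunit, ASPH (0.90), CD63 (0.89) and IER2 (0.88). All of these genes were picked as extremes, and the points share the libraries, their scaling and the size groups.

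Among themselves the members were only loosely related. CDK4 had r = 0.42 with CDKN2C, 0.33 with CDKN1B, 0.32 with CDK6 and -0.41 with RB1 over the 24 libraries, and the closest members were CDKN1B and CDKN2C (0.52). In the 12 littermate differences CCND1 and CDKN2C had the highest value (0.70), with HF replicate 4 the lowest point for both genes. These values are descriptions over libraries that share size and litter.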

How the data were processed

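Per the labels and the study's methods, the authors trimmed single-end reads (Trimmomatic 0.33), aligned them to Sscrofa10.2 with STAR 2.5.2a and counted stranded reads on exons per Entrez gene with featureCounts (Subread 1.5.0). They deposited whole-number counts per gene for each library, not normalized. An entry without identifier (0.613 to 1.62% of reads) was left out. Names came from an Sscrofa11.1 table (23036 of 38882 identifiers matched).

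The software was R 4.3.3, with edgeR 4.0.16 and sva 3.50.0 for the main model, and alternatives with DESeq2 1.42.0 and limma 3.58.1. Genes reaching 1 CPM in 3 or more libraries (16326) were fitted with edgeR's quasi-likelihood test (TMM; 4 groups, sex and 5 surrogate variables from log2 CPM, prior count 2). The Benjamini-Hochberg FDR covered the 7 contrasts of the study, with the lenient FDR p threshold of 0.4 that it named for its heat map. The script was tested on simulated data. Intervals are the estimate and its standard error (the estimate over the root of F) with the fit's degrees of freedom. Sex and cohort were fitted to 12 litter sums (terms diet, sex and cohort, FDR p threshold 0.05).

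Littermates share a pair label, and their deviations from group means correlated by 0.154 on average (0.014 to 0.329), against -0.031 for other pairs on the same diet. Named genes were all members, called genes of the G1/S and S and M phase lists, overlapping genes, and the 5 genes with the highest and the lowest r with CDK4, of which 1 is not reported here. Members and lists were chosen with earlier results of these data known. Counting floors cover counting error only. No sequence is shown, since none was in the sources used here.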

Additional observations from a re-analysis of the deposited data

Results flagged for a closer look

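CCND3 in SGA CON replicate 6 stood apart from the other 5 piglets of its group, at 42.9 CPM, where the next highest was 34.7 CPM. Its gap to the nearest sample, over the range of the group, was 0.867, against Dixon's critical value of 0.625 for 6 samples. Of the 36 sets of 6 libraries examined (9 genes in 4 groups) this was the 1 that passed, and chance alone passes about 1 in 20. The AGA littermate of this piglet had 41.6 CPM.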

How the results depend on the processing

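The number of members called for size was 1 (CDK4). It was 0 with no filter on low counts, with 1 CPM in at least 6 libraries and with limma voom, where the FDR-adjusted p of CDK4 was 0.419 and 0.424 by edgeR and 0.433 by limma, and it was 2 with the FDR over each contrast on its own, where RB1 joined (edgeR FDR-adjusted p = 0.354). With the litter as a replicate block, CDK4 remained the 1 member called for size and 0 were called for the interaction. CDK4 was chosen by its littermate differences, so nothing is read from its calls for size or from its mean littermate difference under these alternatives. The diet estimates of CDK6, CCND1 and CDKN2C were 0.0181, -0.0982 and -0.0629. They reversed to -0.0211, 0.0332 and 0.0531 without surrogate variables, to -0.0219, 0.0333 and 0.0444 with cohort in their place, and to -0.0212, 0.0488 and 0.0288 on the litter sums, and the cause was not tested. The counts for diet, the interaction, sex and cohort were 0 members under every alternative run, and with no filter 1 member (CDK4) had an unadjusted p under 0.05 for diet. The mean CDK4 littermate difference was -0.23 on plain library totals and -0.22 with a prior count of 0.5, and leaving out 1 pair at a time moved it between -0.235 and -0.189. Over all genes, the calls were 13 to 1200 for size (78 in the main fit), 0 to 88 for diet (26) and 0 to 45 for the interaction (8). For diet they were 0 to 58 in AGA piglets (11 in the main fit) and 2 to 31 in SGA piglets (15). The study itself reported more genes for size, diet and the interaction than the main fit. Its set of genes tested was larger as well, and the cause of the difference in calls was not tested. When libraries replaced litter sums, 218 genes were called by cohort (73 on litter sums) and 27 by sex (17). Plain totals for members other than CDK4 were added after the data were seen. The diet estimate of RB1 (-0.11) was -0.0013 without surrogate variables and -0.0019 with cohort, and that of CCND2 (0.19) was 0.07 and 0.06. The size estimate of CDKN2C (-0.07) was -0.24 in both and -0.23 with the litter block. The spread within groups of CCND1, CCND2 and CDKN1A (34.8%, 27.7% and 35.6%) exceeded counting error (19.8%, 14.7% and 26.4%), and litter and diet cannot be separated within a pair.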
